A study of Homo sapiens with 2 samples.

Results

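The PIM kinases PIM1, PIM2 and PIM3 and 7 of their known substrates were examined in HuH6 cells with and without a disrupted PIM3 gene. The members were the rows of the deposited expression table whose symbol equals a listed name. Of the 10 listed genes 9 had such a row: PIM1, PIM2, PIM3, CDC25A, CDC25C, FOXO3, TSC2, MAP3K5 and CXCR4. They stand among 53139 symbols with 1 row of their own, of which 11253 averaged 1 FPKM or more and are called tested genes here. AKT1S1 (PRAS40, an inhibitory component of the growth kinase complex mTORC1) was present only in a row joined with another gene, which cannot be divided between them, so no value is given for it.

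HuH6 is an established human hepatoblastoma cell line, a model of the commonest liver cancer of early childhood. The group PIM3_KO held HuH6 cells in which PIM3 was knocked out with CRISPR/Cas9, and the group HuH6_WT held the unedited cells. Both were untreated and grown in the same medium, and whether the edited cells were 1 clone or a pool is not given in the sources used here. Poly(A) RNA was sequenced in 1 library per group, so no difference below has a replicate check, no p-value was computed, and whatever else may set the edited line apart from HuH6_WT cannot be told apart from loss of PIM3. Levels are in FPKM, read fragments scaled to transcript length and library size, which allows genes to be ordered within a library.

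PIM kinases are serine/threonine kinases that fold into an active form without an activating phosphorylation, so their activity is set largely by how much of the protein is made and how fast it is degraded. Cytokine signalling through JAK and STAT proteins is a known inducer of PIM transcription. The kinases favour sites preceded by basic residues and overlap in their targets with AKT. Among the listed substrates, CDC25A and CDC25C are phosphatases that activate cyclin-dependent kinases, FOXO3 is a transcription factor kept out of the nucleus by phosphorylation, TSC2 restrains mTORC1, MAP3K5 (ASK1) is a stress-activated kinase and CXCR4 is the receptor of the chemokine CXCL12. RNA sequencing reports the transcripts of these genes and not the phosphorylation of their products.

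The value of 1 read, recovered from the low values of genes with 1 exon and 1 transcript, implied normalisation totals of about 22200000 reads in PIM3_KO and 28400000 reads in HuH6_WT. A count of 3 reads from a transcript of 2 kb was thus worth 0.0749 FPKM in PIM3_KO and 0.0588 FPKM in HuH6_WT. Intervals given below are 95% exact intervals on reads estimated from these values and cover counting error only. The summed FPKM differed between libraries, at 1086211 in PIM3_KO and 787250 in HuH6_WT. Giving each library an equal sum (TPM, transcripts scaled to a common total) moved the median log2 ratio of all tested genes by -0.41, to -0.40 instead of 0.01, and ratios under TPM are to be read against that shift. Of the liver and hepatoblastoma markers, 9 of 10 with a row of their own averaged 1 FPKM or more, while DLK1 was listed at 0 in both libraries. Of the 9 markers 4 were at least 2-fold higher in PIM3_KO and none lower, or 3 and none under TPM. Among all tested genes 6.89% were at least 2-fold higher, or 2.87% under TPM. The markers did not share a direction, as 5 of the 9 ratios were positive and 4 negative. The lowest was that of KRT8, with 4424 FPKM in PIM3_KO and 6269 FPKM in HuH6_WT. AFP, the fetal serum protein, measured 70.1 FPKM in PIM3_KO and 1.19 FPKM in HuH6_WT, and ALB, which passed the filter through PIM3_KO, measured 9.18 FPKM in PIM3_KO and 0.520 FPKM in HuH6_WT. TTR measured 2232 FPKM in PIM3_KO and 270.4 FPKM in HuH6_WT. APOA1 measured 12109 FPKM in PIM3_KO and 5201 FPKM in HuH6_WT, with a log2 ratio of 0.75 under TPM. Their part in the members' differences was not tested.

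All 9 members found were among the tested genes, and 2 differed at least 2-fold on the log2(FPKM + 1) scale. PIM3 was the lower one and CXCR4 the higher one in PIM3_KO. Among all tested genes 4.59% were at least 2-fold lower and 6.89% at least 2-fold higher, so a count of 1 in each direction is close to the background and is no result about the members as a group. Under TPM the members' counts were the same, where 2.87% of tested genes were higher and 14.4% lower by this fold. They were also the same after a correction of the ratios for transcript length, where 4.95% were higher and 4.59% lower, and at a 1.5-fold threshold, where 18.2% were higher and 14.9% lower. The median log2 ratio of the 9 members was 0.03, or -0.39 under TPM, next to the medians of all tested genes given above. RefSeq promoter windows of PIM3 and CXCR4 are shown because theirs were the largest differences among the members. Each runs from 250 bases before to 50 bases after a RefSeq transcript start (GRCh38.p14), 5′ to 3′ on the strand of the gene. Capitals mark the GC box GGGCGG and the TATA box TATAAA on either strand, with overlapping matches run together.
PIM3, chr22:49960522-49960821, plus strand: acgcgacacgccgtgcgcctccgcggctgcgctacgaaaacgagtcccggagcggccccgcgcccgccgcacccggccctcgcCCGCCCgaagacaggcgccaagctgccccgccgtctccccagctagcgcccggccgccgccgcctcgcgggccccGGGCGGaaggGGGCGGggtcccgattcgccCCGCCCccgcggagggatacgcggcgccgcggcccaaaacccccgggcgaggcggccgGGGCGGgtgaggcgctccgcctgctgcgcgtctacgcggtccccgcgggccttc
CXCR4, chr2:136118100-136118399, minus strand: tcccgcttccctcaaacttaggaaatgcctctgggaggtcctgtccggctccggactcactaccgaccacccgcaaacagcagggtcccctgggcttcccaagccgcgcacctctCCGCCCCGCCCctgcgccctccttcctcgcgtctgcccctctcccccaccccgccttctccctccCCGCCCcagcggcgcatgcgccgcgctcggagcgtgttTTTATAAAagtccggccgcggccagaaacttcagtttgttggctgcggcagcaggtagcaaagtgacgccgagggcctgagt

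The PIM3 window was 81.3% G or C, against a median of 58.7% over 35116 RefSeq windows of this length, and held 56 CG pairs and 5 GC boxes. It held no TATA box. The RefSeq start of PIM3, 49960772, lies 259 bases downstream of the start of the GENCODE gene span given below and 4 bases downstream of the start of another GENCODE exon, so by the longer annotation this window lies within the gene. The RefSeq start of CXCR4 lies 16 bases downstream of the GENCODE one. The CXCR4 window, the most upstream of 3 for this gene, was 66.7% G or C and held 27 CG pairs and 3 GC boxes. It also held 2 overlapping TATA box matches, 1 on each strand. The TATAAA on the strand of the gene began 30 bases before the start. The windows of PIM1 and PIM2 were 79.7% and 62.3% G or C, with 4 GC boxes and 1 GC box, and had no TATA box. A GC box occurred in 45.0% and a TATA box in 11.5% of all windows. Neither the STAT motif TTCNNNGAA, found in 7.66% of all windows, nor the FOXO motif GTAAACA, found in 3.42%, occurred in any of the 4 windows on either strand.

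PIM3 itself (ENSG00000198355.4, chromosome 22 from 49960513 to 49964080, GRCh38, plus strand, 6 exons) was lower where it was targeted. It measured 14.05 FPKM in PIM3_KO (interval 13.01 to 15.1, about 678 reads) and 34.2 FPKM in HuH6_WT (interval 32.8 to 35.7, about 2105 reads). The counting intervals did not overlap. The transcript thus remained at 41.1% of the parental level, with an interval of 37.6% to 44.8%, and at 29.8% on the TPM scale. Its log2 ratio of -1.23 was below that of 97.4% of tested genes. Small insertions and deletions left by Cas9 need not remove the transcript, and the reads of the edited exon were not analysed here, so the remaining level says nothing of the protein.

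PIM3 was not the only gene of its neighbourhood to be lower. Within 500 kb of PIM3 there were 17 other coding genes with a row of their own, and 13 of them were among the tested genes. Of these 13, 12 had a negative log2 ratio, with a median of -0.55, next to 5509 of all 11253 tested genes. At least 2-fold lower were 2 of the 13, next to 4.59% of all tested genes. PLXNB2, a semaphorin receptor, measured 26.4 FPKM in PIM3_KO and 89.6 FPKM in HuH6_WT, and SBF1 measured 11.99 FPKM in PIM3_KO and 30.2 FPKM in HuH6_WT. PLXNB2, with a log2 ratio of -1.73, was lower in ratio than PIM3 at -1.23, and SBF1 at -1.26 was close to PIM3. Counting intervals are not given for the neighbours. CRELD2 was the gene with a positive ratio (35.4 FPKM in PIM3_KO and 24.7 FPKM in HuH6_WT). The log2 ratio of PIM3 was -0.67 relative to the neighbours' median. Under TPM that median was -0.95, next to -0.40 for all tested genes, and CRELD2 stood at 0.05. PANX2 at -1.11, TUBGCP6 at -1.33 and DENND6B at -1.16 were then at least 2-fold lower too, as were PLXNB2 and SBF1. By this fold 14.4% of all tested genes were lower under TPM, so the extent of the regional difference depended on the scaling. The part of the regional difference in the PIM3 value was not tested.

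PIM1 (ENSG00000137193.13, chromosome 6 from 37170203 to 37175426), the founding member of the family, was the most abundant PIM transcript in both libraries. It measured 60.5 FPKM in PIM3_KO (interval 58.5 to 62.6) and 80.0 FPKM in HuH6_WT (interval 78.0 to 82.2), so that the knockout library held 75.6% of the parental level. Its level exceeded that of 82.3% of tested genes in PIM3_KO and 88.3% in HuH6_WT. The log2 ratio was -0.40, or -0.86 under TPM, and it was short of 2-fold on both scales.

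PIM2 (ENSG00000102096.9, X chromosome from 48913182 to 48919024) was the least abundant of the kinases. It measured 9.09 FPKM in PIM3_KO (interval 8.20 to 10.1) and 6.82 FPKM in HuH6_WT (interval 6.13 to 7.56). The intervals did not overlap, and the log2 ratio was 0.37, but it was -0.04 under TPM. The direction for PIM2 therefore depended on the scaling.

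**Figure D1:**
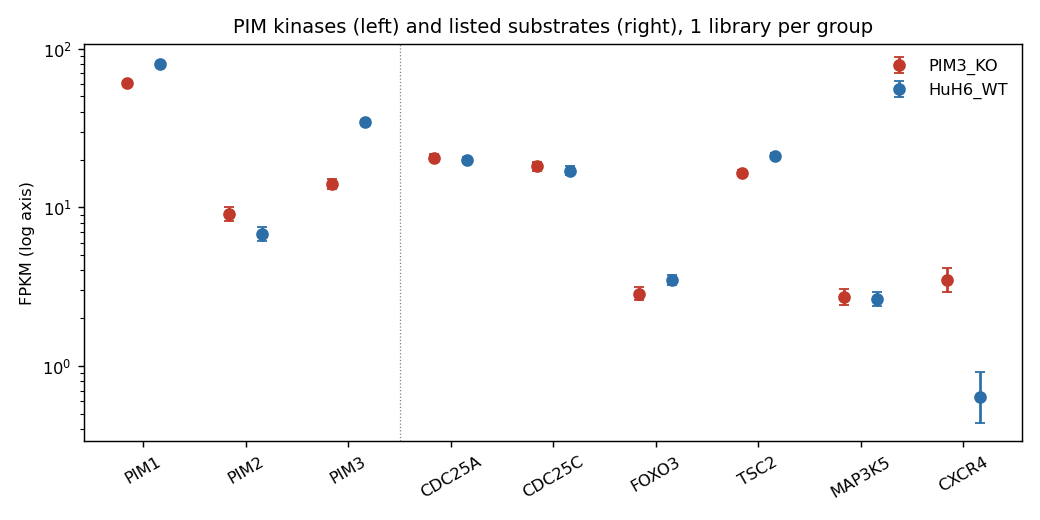
Level of each member in FPKM on a log axis, with PIM3_KO in red and HuH6_WT in blue, 1 library each and bars for 95% intervals of counting error. PIM3 stands at 14.05 FPKM in PIM3_KO and 34.2 FPKM in HuH6_WT, CXCR4 at 3.49 FPKM in PIM3_KO and 0.642 FPKM in HuH6_WT, and the remaining members lie closer together.

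Because the shares of a family within 1 library do not depend on how the library is scaled, the PIM family was also described by its composition. PIM1 made up 72.3% of the summed PIM level in PIM3_KO and 66.1% in HuH6_WT. PIM3 made up 16.8% of the sum in PIM3_KO and 28.3% in HuH6_WT, and PIM2 made up 10.9% in PIM3_KO and 5.63% in HuH6_WT. Shares are parts of 1 sum, so a lower PIM3 share raises the other shares by arithmetic. The larger PIM1 share thus stands beside a lower PIM1 level. Without PIM3 in the comparison, PIM1 stood at 6.66 times PIM2 in PIM3_KO and 11.7 times PIM2 in HuH6_WT. The order PIM1, PIM3, PIM2 was the same in both libraries, and the counting intervals of neighbours in that order did not overlap. The distance between PIM3 and PIM2 differed, as PIM3 stood at 1.55 times PIM2 in PIM3_KO and 5.02 times PIM2 in HuH6_WT. The summed level of the 3 kinases was 83.7 FPKM in PIM3_KO and 121 FPKM in HuH6_WT, or 69.1% of the parental sum, and 50.1% on the TPM scale. The sum was lower on both scales, and no PIM kinase was at least 2-fold higher on either.

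**Figure D2:**
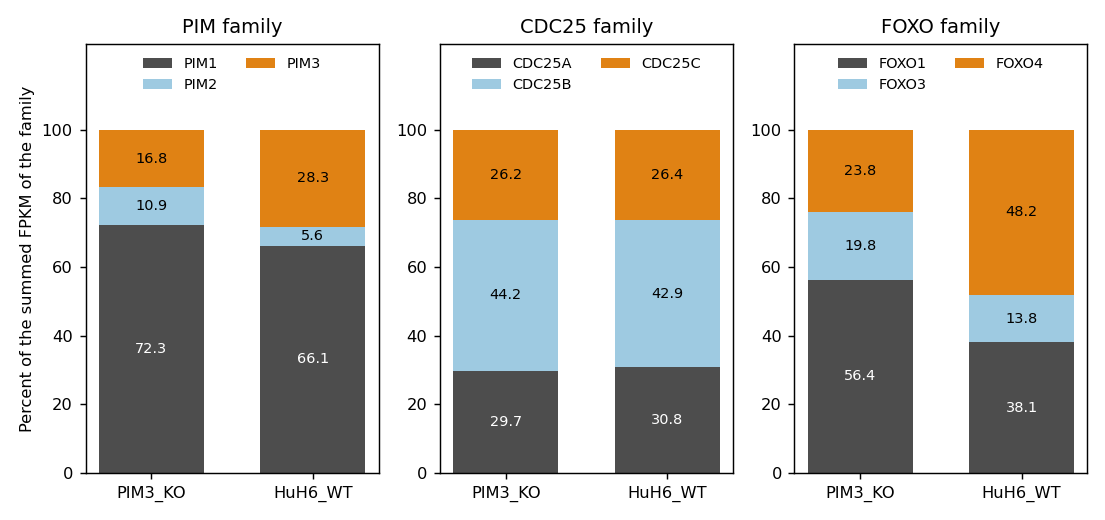
Composition of the PIM, CDC25 and FOXO families within each library, as percent of the family's summed FPKM, with PIM3_KO left of HuH6_WT. PIM3 takes 16.8% of the PIM sum in PIM3_KO and 28.3% in HuH6_WT, the CDC25 shares differ little, and FOXO4 takes 23.8% of the FOXO sum in PIM3_KO and 48.2% in HuH6_WT.

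The phosphatases CDC25A and CDC25C were close to equal in both libraries. CDC25A (chromosome 3), which drives entry into S phase, measured 20.5 FPKM in PIM3_KO and 19.8 FPKM in HuH6_WT, and the knockout level was 104% of the parental one with an interval of 97.0% to 111%. CDC25C (chromosome 5), which activates CDK1 at mitotic entry, measured 18.1 FPKM in PIM3_KO and 17.0 FPKM in HuH6_WT, or 106% with an interval of 96.6% to 117%. Both intervals include equal levels on the FPKM scale, whereas under TPM the log2 ratios were -0.39 for CDC25A and -0.36 for CDC25C, close to the shift of all genes. CDC25C shares 293 exonic bases with FAM53C on the opposite strand, which measured 8.97 FPKM in PIM3_KO and 17.3 FPKM in HuH6_WT. Whether reads were assigned by strand is not given in the sources used here. With the sister gene CDC25B, which was no member, the family summed to 69.2 FPKM in PIM3_KO and 64.4 FPKM in HuH6_WT. CDC25B made up 44.2% of the sum in PIM3_KO and 42.9% in HuH6_WT, CDC25A 29.7% in PIM3_KO and 30.8% in HuH6_WT, and CDC25C 26.2% in PIM3_KO and 26.4% in HuH6_WT.

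FOXO3 (chromosome 6), the member that induces genes of cell death and quiescence when PIM or AKT leaves it unphosphorylated, was of low abundance. It measured 2.86 FPKM in PIM3_KO (interval 2.61 to 3.14) and 3.47 FPKM in HuH6_WT (interval 3.22 to 3.74), or 82.5% of the parental level. Its log2 ratio of -0.21 became -0.57 under TPM and 0.03 after correction for transcript length, so its direction depended on the processing. FOXO4, a related factor that was no member, differed more, with 3.44 FPKM in PIM3_KO and 12.1 FPKM in HuH6_WT, while FOXO1 measured 8.14 FPKM in PIM3_KO and 9.61 FPKM in HuH6_WT. The order of levels within the family accordingly differed between the libraries: FOXO1 was highest in PIM3_KO and FOXO4 in HuH6_WT. FOXO3 was the lowest of these factors in both, though in PIM3_KO its counting interval overlapped that of FOXO4.

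TSC2 (chromosome 16), which encodes the subunit of the TSC complex that switches off the small GTPase RHEB and so mTORC1, measured 16.5 FPKM in PIM3_KO (interval 15.8 to 17.2) and 21.2 FPKM in HuH6_WT (interval 20.5 to 21.9). The knockout library held 78.0% of the parental level, and the log2 ratio was -0.34, -0.78 under TPM and -0.11 after correction for transcript length. The exons of TSC2 overlap on the opposite strand with those of the DNA glycosylase gene NTHL1 over 402 bases, and with those of PKD1 over 778 bases. NTHL1 measured 57.9 FPKM in PIM3_KO and 19.97 FPKM in HuH6_WT, and PKD1 measured 3.45 FPKM in PIM3_KO and 8.83 FPKM in HuH6_WT. Their part in the TSC2 value was not tested.

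MAP3K5 (chromosome 6), which phosphorylates the kinases upstream of JNK and p38, was nearly equal. It measured 2.72 FPKM in PIM3_KO and 2.64 FPKM in HuH6_WT, or 103% with an interval of 88.0% to 120%. Its log2 ratio was 0.03, -0.31 under TPM and 0.25 after correction for transcript length.

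CXCR4 (ENSG00000121966.6, chromosome 2 from 136114349 to 136118165, minus strand) was the member with the largest ratio. This receptor guides the migration of blood and tumour cells, and its phosphorylation by PIM1 is known to bear on its place at the cell surface. It measured 3.49 FPKM in PIM3_KO (interval 2.92 to 4.14, about 132 reads) and 0.642 FPKM in HuH6_WT (interval 0.436 to 0.912, about 30.9 reads). The linear ratio was 5.43-fold, with an interval of 3.62 to 8.25, and 3.94-fold on the TPM scale. On the log2(FPKM + 1) scale the ratio was 1.45, above that of 97.6% of tested genes, and it was 1.21 under TPM. CXCR4 lay under 1 FPKM in HuH6_WT and passed the filter on low values through its level in PIM3_KO, so its place among the tested genes and its difference are not independent. With 5 FPKM added in place of 1 its log2 ratio was 0.59, short of 2-fold.

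Since CXCR4 is also a gene of blood cells, leukocyte markers are given beside it. LYZ measured 8.21 FPKM in PIM3_KO and 4.46 FPKM in HuH6_WT, CD14 2.27 FPKM in PIM3_KO and 1.51 FPKM in HuH6_WT, and ITGAM 0.891 FPKM in PIM3_KO and 0.501 FPKM in HuH6_WT. The T cell chain CD3E measured 0.248 FPKM in PIM3_KO and was listed at 0 in HuH6_WT. The pan-leukocyte marker PTPRC had 2 rows, both listed at 0 in PIM3_KO, while in HuH6_WT 1 was listed at 0 and the other measured 0.00773 FPKM. The part of other cell types in the CXCR4 value was not tested. Summed levels of the remaining marker lists were 10.7 FPKM in PIM3_KO and 10.3 FPKM in HuH6_WT for fibroblasts and stellate cells, 1.34 FPKM in PIM3_KO and 1.98 FPKM in HuH6_WT for endothelium, and 0.324 FPKM in PIM3_KO and 0 in HuH6_WT for neuroblasts. The sum for fibroblasts and stellate cells covers 6 of 7 listed markers, as PDGFRA occurred only in a row joined with other symbols.

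**Figure D3:**
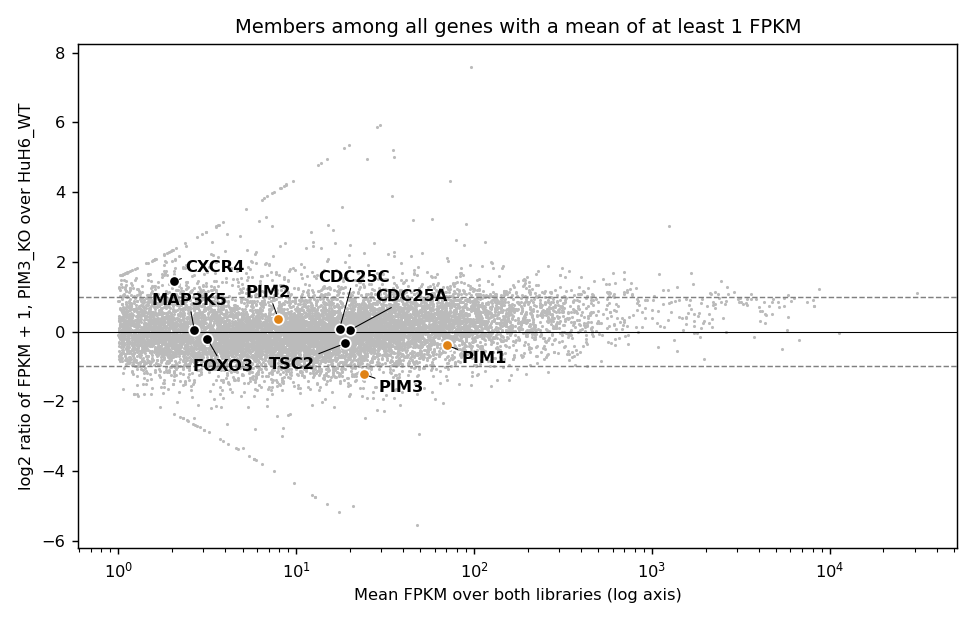
Log2 of FPKM + 1 in PIM3_KO divided by that in HuH6_WT, against the mean level over both libraries (log axis), for all 11253 tested genes in grey, the PIM kinases in orange and the listed substrates in black, with dashed lines at 2-fold. PIM3 lies below the lower line and CXCR4 above the upper one, and the other 7 members lie between the lines.

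How far each member's ratio depended on the scaling is shown in the plot of ratios under each scaling. PIM3 was at least 2-fold lower and PIM1 and TSC2 had negative ratios under each of the 5 other settings tried. CXCR4 was positive under each of them, from 0.59 to 2.27. PIM2, CDC25A, CDC25C, FOXO3 and MAP3K5 changed sign under at least 1 setting, and no direction is given for them. Relative to the TPM median of all tested genes, -0.40, PIM2 at -0.04, MAP3K5 at -0.31, CDC25C at -0.36 and CDC25A at -0.39 lay above it and FOXO3 at -0.57 below it.

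**Figure D4:**
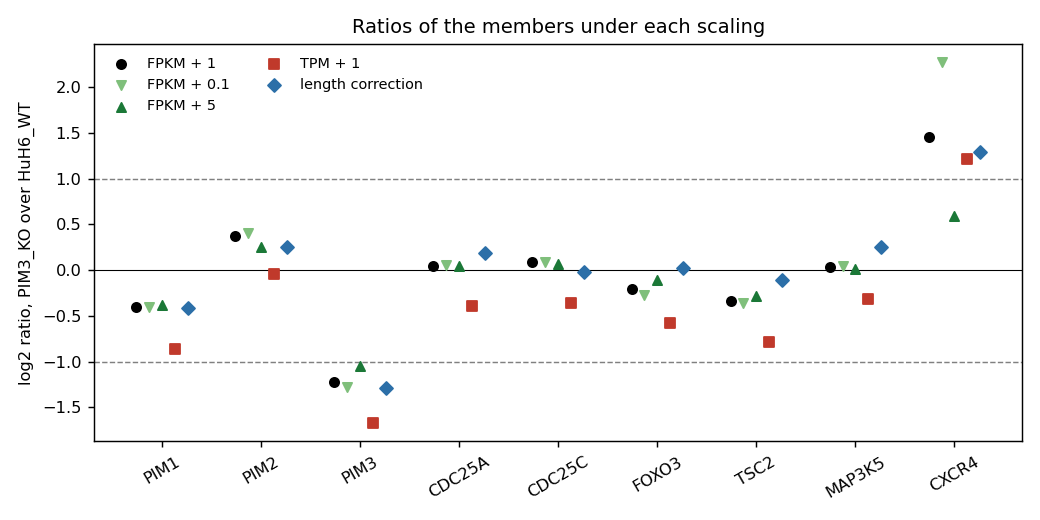
Log2 ratio of each member in PIM3_KO over HuH6_WT with 1, 0.1 or 5 FPKM added, after rescaling to TPM, and after a correction for transcript length, with dashed lines at 2-fold. TPM lowers every member, PIM3 lies below -1 throughout with -1.04 as its value nearest to that line, and the pseudocount moves CXCR4 most.

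The wider circuit around the members was described with 10 further gene lists, which share some genes. Apart from the members they hold 113 genes, of which 104 had a row of their own and 91 were among the tested genes. Of these 91, 4 passed 2-fold upwards in PIM3_KO and 6 downwards, next to 6.89% and 4.59% of all tested genes. Of their ratios 41 were positive and 50 negative, next to 5744 and 5509 over all tested genes. Under TPM the counts were 2 higher and 17 lower, next to 2.87% and 14.4% of all tested genes. The counts of the single lists are to be read against the same shares. The median log2 ratio of the 91 genes was -0.05.

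Other reported PIM substrates spanned both directions. Of 27 listed, 20 were measured, with 1 past 2-fold upwards, 2 downwards, 8 positive and 12 negative ratios and a median of -0.17. The higher one was BAD, the death promoter that PIM kinases inactivate, with 83.9 FPKM in PIM3_KO and 34.5 FPKM in HuH6_WT, although under TPM its log2 ratio was 0.80 and short of 2-fold. The lower ones were FOXO4, given above, and the cytokine signalling inhibitor SOCS3, with 3.28 FPKM in PIM3_KO and 7.75 FPKM in HuH6_WT. The cell cycle inhibitors differed little, with CDKN1A at 118 FPKM in PIM3_KO and 128 FPKM in HuH6_WT, and CDKN1B at 66.9 FPKM in PIM3_KO and 64.8 FPKM in HuH6_WT. The drug efflux pump ABCB1 measured 0.133 FPKM in PIM3_KO and 1.64 FPKM in HuH6_WT and fell short of the minimum mean level, and the related pump ABCG2, also a PIM substrate, measured 57.9 FPKM in PIM3_KO and 59.0 FPKM in HuH6_WT. FLT3 was listed at 0 in both libraries, and IRS1 was listed at 0 in PIM3_KO and lay under 0.05 FPKM in HuH6_WT.

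Upstream of the kinases, the listed inducers of PIM transcription had more negative than positive ratios on the FPKM scale. They were cytokine receptor and JAK-STAT genes and the transcription factors ETS1, NFKB1, RELA, KLF5 and HIF1A. Of 12 listed inducers 9 were measured, with 3 positive and 6 negative ratios and a median of -0.20, and 1 was at least 2-fold lower. That gene was IL6ST, the shared receptor chain gp130 of the IL-6 family, with 18.8 FPKM in PIM3_KO and 42.9 FPKM in HuH6_WT. The kinase JAK1 measured 11.5 FPKM in PIM3_KO and 18.6 FPKM in HuH6_WT, and STAT3, through which IL-6 signals reach the PIM1 gene, measured 10.9 FPKM in PIM3_KO and 12.6 FPKM in HuH6_WT. After correction for transcript length none of the 9 was at least 2-fold lower and 5 ratios were positive, with a log2 ratio of -0.91 for IL6ST. Under TPM all 9 ratios were negative and 2 genes were at least 2-fold lower, next to 14.4% of all tested genes. Genes that bear on the stability of PIM proteins, the HSP90 chaperones with CDC37 and subunits of the phosphatase PP2A, had 3 positive and 2 negative ratios among 5 measured and none past 2-fold. Under TPM 1 of these 5 was at least 2-fold lower. The extremes were PPP2R1A with 202 FPKM in PIM3_KO and 131 FPKM in HuH6_WT, and PPP2CB with 76.7 FPKM in PIM3_KO and 120 FPKM in HuH6_WT.

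Around TSC2 and AKT1S1, genes of AKT and mTORC1 had 8 positive and 7 negative ratios among 15 measured, with a median of 0.06. The translation repressor EIF4EBP1, inactivated by mTORC1, was the 1 gene past 2-fold, with 267 FPKM in PIM3_KO and 107 FPKM in HuH6_WT, though its log2 ratio was 0.85 under TPM. The kinase gene MTOR measured 17.0 FPKM in PIM3_KO and 27.5 FPKM in HuH6_WT, its partner RPTOR had the lowest ratio with 6.09 FPKM in PIM3_KO and 10.8 FPKM in HuH6_WT, and TSC1, the partner of TSC2, measured 9.05 FPKM in PIM3_KO and 14.3 FPKM in HuH6_WT. AKT1 measured 50.8 FPKM in PIM3_KO and 48.6 FPKM in HuH6_WT, and AKT2 38.9 FPKM in PIM3_KO and 65.1 FPKM in HuH6_WT. Under TPM none of the 15 was at least 2-fold higher and 5 were at least 2-fold lower, where 2.87% of all tested genes were higher and 14.4% lower.

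Targets of FOXO factors did not share a direction. Of 14 measured, 4 ratios were positive and 10 negative, with a median of -0.20, and 1 gene passed 2-fold each way. TXNIP, an inhibitor of thioredoxin, measured 12.3 FPKM in PIM3_KO and 3.07 FPKM in HuH6_WT, and the transcriptional co-regulator CITED2 measured 20.9 FPKM in PIM3_KO and 75.0 FPKM in HuH6_WT. Both remained past 2-fold under TPM, with log2 ratios of 1.33 and -2.25. Under TPM 2 of the 14 ratios were positive and 12 negative, with 1 gene at least 2-fold higher and 3 lower. By this fold 2.87% of all tested genes were higher and 14.4% lower under TPM. With 0.1 FPKM added 1 of the 14 was higher and 3 lower, next to 1031 and 812 of all 11253 tested genes. The death gene BCL2L11 measured 11.2 FPKM in PIM3_KO and 9.69 FPKM in HuH6_WT, and BBC3 measured 20.7 FPKM in PIM3_KO and 25.3 FPKM in HuH6_WT.

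Among the CDC25 phosphatases, the kinases and cyclins on which they act, and their regulators, 10 of 14 ratios were positive and none passed 2-fold. The median was 0.11, or -0.33 under TPM. Under TPM 1 of the 14 was at least 2-fold lower, next to 14.4% of all tested genes. CCNB1, the mitotic cyclin, had the highest ratio with 297 FPKM in PIM3_KO and 173 FPKM in HuH6_WT. WEE1, the kinase that opposes CDC25, had the lowest with 30.2 FPKM in PIM3_KO and 50.8 FPKM in HuH6_WT. Of 14-3-3 proteins, which hold phosphorylated CDC25C, FOXO3 and BAD in the cytoplasm, 5 were measured and none passed 2-fold. Under TPM 1 of these 5 was at least 2-fold lower. SFN measured 108 FPKM in PIM3_KO and 76.2 FPKM in HuH6_WT, and YWHAG measured 19.7 FPKM in PIM3_KO and 36.9 FPKM in HuH6_WT.

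In the cascade of MAP3K5, counted with it, 6 of 11 measured genes had positive and 5 negative ratios. MAP2K6, an activator of p38, was at least 2-fold higher, with 7.59 FPKM in PIM3_KO and 2.35 FPKM in HuH6_WT. MAPK8, which encodes the kinase JNK1, was at least 2-fold lower, with 12.6 FPKM in PIM3_KO and 35.4 FPKM in HuH6_WT. Both stayed past 2-fold under TPM, with log2 ratios of 1.00 and -1.87, though MAP2K6 lay on the threshold. With 5 FPKM added in place of 1, or with a minimum mean of 5 FPKM, MAP2K6 did not count as 2-fold higher. Around CXCR4, the ligand gene CXCL12 and the scavenging receptor gene ACKR3 were listed at 0 in PIM3_KO and lay under 0.05 FPKM in HuH6_WT, which is below 3 reads in each. GNAI1, one of the G protein subunits through which CXCR4 signals, measured 1.39 FPKM in PIM3_KO and 15.4 FPKM in HuH6_WT, while GNAI2 measured 40.3 FPKM in PIM3_KO and 51.7 FPKM in HuH6_WT. Of the arrestins, ARRB1 measured 22.7 FPKM in PIM3_KO and 21.5 FPKM in HuH6_WT, and ARRB2 measured 32.0 FPKM in PIM3_KO and 30.6 FPKM in HuH6_WT.

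**Figure D5:**
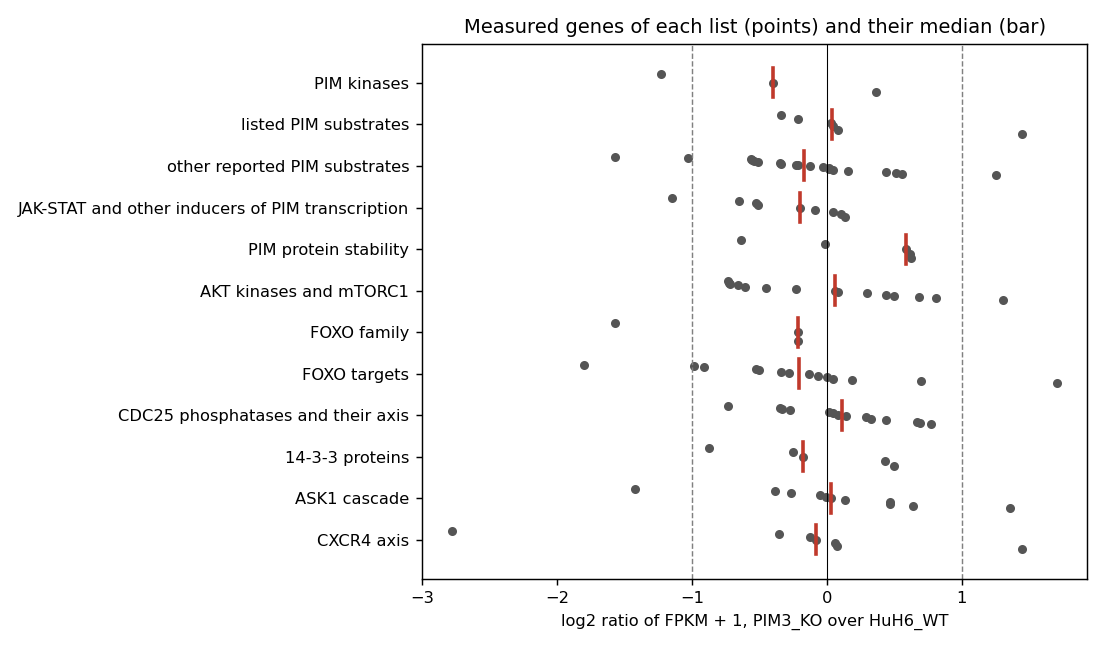
Log2 of FPKM + 1 in PIM3_KO divided by that in HuH6_WT, for the measured genes of each list (points), with the list's median as a red bar and dashed lines at 2-fold. The list medians lie between -0.40 for the PIM kinases and 0.59 for the PIM stability genes, and the outermost points are GNAI1 at -2.78 and TXNIP at 1.71.

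The 3 tested genes whose pair of levels was nearest to that of PIM3, by Euclidean distance of log2(FPKM + 1) over the 2 libraries, were EGR2, JAG1 and ZMIZ2. EGR2 measured 13.8 FPKM in PIM3_KO and 35.2 FPKM in HuH6_WT, JAG1 14.3 FPKM in PIM3_KO and 33.1 FPKM in HuH6_WT, and ZMIZ2 13.2 FPKM in PIM3_KO and 34.7 FPKM in HuH6_WT. With 2 libraries such likeness rests on 2 values per gene.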

How the data were processed

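Poly(A) RNA of both groups was sequenced as single-end 75 bp reads from directional libraries, per the labels' protocols. Cufflinks 2.2.1, STAR 2.7.3a and bcl2fastq 2.18.0.12 are named with the build GRCh38 in the submitters' processing notes. Not given in the sources used here were the annotation release, the strand setting and any filter. The authors deposited FPKM values in 1 column per library, per the file headers. Of 62571 rows, 1736 that join several symbols and symbols with several rows were left out, a choice made after the table was seen. Genes averaging 1 FPKM or more were compared by the log2 ratio of FPKM + 1 (PIM3_KO over HuH6_WT), a scale that makes the differences of low genes smaller, with 2-fold as threshold. Lengths and positions came from GENCODE release 29 (GRCh38), which matched 11070 of 11253 tested genes and from which 1 transcript per gene was taken that need not be the one expressed. For genes with 1 exon of 600 to 5000 bp, FPKM times kilobases (less 200 bp) came in steps, with 96.2% of values under 20 reads in PIM3_KO and 96.4% in HuH6_WT within 0.05 of a whole read. Read estimates of other genes are approximate. Promoter windows came from RefSeq (GRCh38.p14), where the 3 PIM genes and CXCR4 matched. A planned search of protein sequences was not run, and a few list genes are not reported here. Named genes were the members, list genes past 2-fold or with the highest and lowest ratio, the coding neighbours and the 3 genes nearest to PIM3. Other list genes were chosen after their values were seen, and all members and lists were chosen with earlier results of these data known. Python 3.11.15, pandas 2.3.3, scipy 1.17.1 and statsmodels 0.14.6 (lowess, fraction 0.3) were used, and the code was tested on simulated data.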

Additional observations from a re-analysis of the deposited data

How the results depend on the processing

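The main values are log2 ratios of FPKM + 1 with a mean of at least 1 FPKM. The PIM3 value of -1.23 became -1.04 with 5 FPKM added and -1.67 under TPM, and the median of the members became -0.39 under TPM instead of 0.03. The number of members at least 2-fold higher was 0 instead of 1 with 5 FPKM added or with a minimum mean of 5 FPKM, and the number lower was 1 under each setting. For the pathway genes other than members, 4 were higher, against 2 under TPM, 2 after the length correction and 14 at a 1.5-fold threshold, and 6 were lower, against 17 under TPM and 17 at a 1.5-fold threshold. The TPM values move because each library is divided by its own total, and the cause of the other differences was not tested. Of the single members' ratios other than PIM3, 28 values moved by less than the counting error and 12 by more, and of the counts per list 162 stayed within 1.5 times and 30 did not. No called member changed sign. No member had several rows, so summing rows was not run. With 1 library per group no replicate could be left out. No paired analysis was possible because each group had 1 library. Low counts limit CXCR4 in HuH6_WT and the genes near 0.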

Other observations

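Several genes around the PIM kinases occurred only in rows that join them with neighbours, and their values belong in no comparison. The row of HIF1A, a factor of the hypoxia response, with SNAPC1 measured 26.8 FPKM in PIM3_KO and 48.7 FPKM in HuH6_WT. The row of RPS6KB1, the S6 kinase downstream of mTORC1, with AC005702.1 measured 23.3 FPKM in PIM3_KO and 11.4 FPKM in HuH6_WT. The row that joins the PP2A catalytic subunit PPP2CA with SKP1 and 2 other symbols measured 356 FPKM in PIM3_KO and 441 FPKM in HuH6_WT. The row of GNAI3 with AMPD2 measured 14.1 FPKM in PIM3_KO and 20.4 FPKM in HuH6_WT, and that of the 14-3-3 gene YWHAH with DEPDC5 and Z82190.2 measured 109 FPKM in PIM3_KO and 159 FPKM in HuH6_WT. The 14-3-3 gene YWHAE was listed at 0 in both of its rows in both libraries, and a value listed at 0 can be a failed estimate.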
